A study of Rattus norvegicus with 12 samples.

Results

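The genes described here are 10 genes of polyamine metabolism and of its antizyme control, measured by RNA sequencing of rat dorsal root ganglia, which hold the cell bodies of sensory neurons. They are Azin2, Azin1, Oaz1, Oaz2, Odc1, Amd1, Srm, Sms, Sat1 and Arg1, taken by symbol, and all 10 were listed in all 12 libraries and passed the expression filter, out of 20152 genes listed in any library and 15809 tested. The list was chosen by symbol with earlier results of these libraries known, and selected on the scaled counts and FPKM of Azin2, whose difference between paclitaxel and vehicle had already been seen. That difference is therefore given as a description, nothing is read from counts of calls that include it, and the comparison of oxaliplatin with paclitaxel uses the same paclitaxel libraries.

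Of the 12 libraries, 4 came from rats treated with the platinum drug oxaliplatin (2.4 mg/kg), which forms DNA adducts. Another 4 came from rats treated with paclitaxel (2.0 mg/kg), which stabilises microtubules, and 4 from vehicle rats. Both drugs were injected into the peritoneal cavity to bring about a painful neuropathy, oxaliplatin dissolved in glucose solution and paclitaxel in DMSO diluted with saline, while the labels name a single vehicle group whose solvent is not given. Strain, sex, age, number of injections and time of sampling are not given in the sources used here, nor whether replicates came from separate animals, so p-values measure only the spread between these libraries, which may be technical. In bulk tissue, fewer cells of a type and less RNA per cell cannot be told apart.

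Putrescine, spermidine and spermine are small positively charged molecules that bind nucleic acids and block or modulate several ion channels, among them inward rectifier potassium channels and glutamate receptors. Ornithine decarboxylase, the product of Odc1, makes putrescine, and antizymes bind this enzyme and deliver it to the proteasome without ubiquitin. Antizyme inhibitors resemble ornithine decarboxylase, lack its activity and bind antizyme more tightly, which frees the enzyme. Antizyme protein is made by a ribosomal frameshift that polyamines promote, and RNA levels do not show that step.

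Depth lay between 17008728 and 17615736 estimated counts a library. The library paclitaxel 4 stood apart from the other paclitaxel libraries: 1631 genes were called between paclitaxel and vehicle without it, against 19 with it (edgeR, adjusted p under 0.05). Summed over 12 neuronal markers, the level was 15286 to 19490 CPM (counts scaled to library size) after oxaliplatin, 21358 to 29945 CPM after paclitaxel and 20753 to 23653 CPM with vehicle, with 0 of the markers at 0, and paclitaxel 4 was the lowest paclitaxel library. Summed over 12 macrophage markers it was 230 to 288, 99.5 to 179 and 206 to 355 CPM in the same order of groups, and over 10 erythroid markers 3780 to 12929, 865 to 2322 and 1833 to 3451 CPM.

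The start regions of the antizyme genes are printed because Oaz1 and Oaz2 moved together over the 12 libraries (Pearson r 0.85). Each is the stretch of 250 bases before the gene's start, from RefSeq (build GRCr8), read 5′ to 3′ along the gene's strand. Capitals mark matches on either strand to CACGTG (the E-box bound by Myc and Max), GGGCGG (the GC box), TATAAA (the TATA box), TGACG (the core of the CRE) or CCAAT.
Oaz1, chr7:9536991-9537240, minus strand: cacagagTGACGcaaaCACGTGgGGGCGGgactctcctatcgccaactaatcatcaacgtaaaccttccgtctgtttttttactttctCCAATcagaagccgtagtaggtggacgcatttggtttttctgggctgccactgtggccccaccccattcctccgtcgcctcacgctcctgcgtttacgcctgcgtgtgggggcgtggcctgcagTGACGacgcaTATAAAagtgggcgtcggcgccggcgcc
Oaz2, chr8:75094567-75094816, plus strand: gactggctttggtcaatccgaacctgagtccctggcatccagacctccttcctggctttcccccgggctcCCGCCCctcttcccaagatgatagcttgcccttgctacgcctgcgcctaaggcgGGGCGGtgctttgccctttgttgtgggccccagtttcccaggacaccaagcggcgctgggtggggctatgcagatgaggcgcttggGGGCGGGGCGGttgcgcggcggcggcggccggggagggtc

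Upstream of Oaz1 there was 1 E-box, 1 GC box, 1 TATA box, 2 CRE core matches and 1 CCAAT match, and upstream of Oaz2 there were 4 GC boxes and 0 matches to the other motifs. Of 33469 RefSeq promoter stretches of this length, 5.59% held CACGTG, 30.5% GGGCGG, 12.9% TATAAA, 18.2% TGACG and 34.0% CCAAT. Promoter entries matched 7 of the 10 genes. CACGTG stood in those of Oaz1 and Srm, 1 match each, and GGGCGG in all 7. A match is a string of letters, not a binding site.

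Levels between genes can be set side by side in FPKM, fragments scaled by transcript length and library size. With vehicle the antizymes led: Oaz1 had 526 ± 28.5 FPKM (SD, n = 4), a higher level than 99.4% of the genes listed in any library, and Oaz2 129 ± 6.22 FPKM. Sat1 followed with 118 ± 45.3 FPKM, a level that did not differ from that of Oaz2 beyond its own spread. Azin1 had 50.5 ± 4.13 FPKM, Odc1 34.2 ± 1.82, Amd1 32.0 ± 1.67, Sms 28.6 ± 2.39 and Azin2 23.3 ± 0.379 FPKM, and of these neighbours only Odc1 and Amd1, and Amd1 and Sms, had overlapping values. Srm had 8.31 ± 3.10 FPKM and Arg1 2.86 ± 1.02 FPKM, the lowest of the 10. The order was the same after paclitaxel except that Azin2 (31.8 ± 1.39 FPKM) stood above Amd1 (28.1 ± 2.91), with overlapping values, and Sms (25.5 ± 1.80). After oxaliplatin Odc1 (38.1 ± 3.19 FPKM) and Azin1 (37.2 ± 4.11) overlapped, as did Azin2 (23.2 ± 2.70) and Sms (22.5 ± 3.20).

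**Figure D1:**
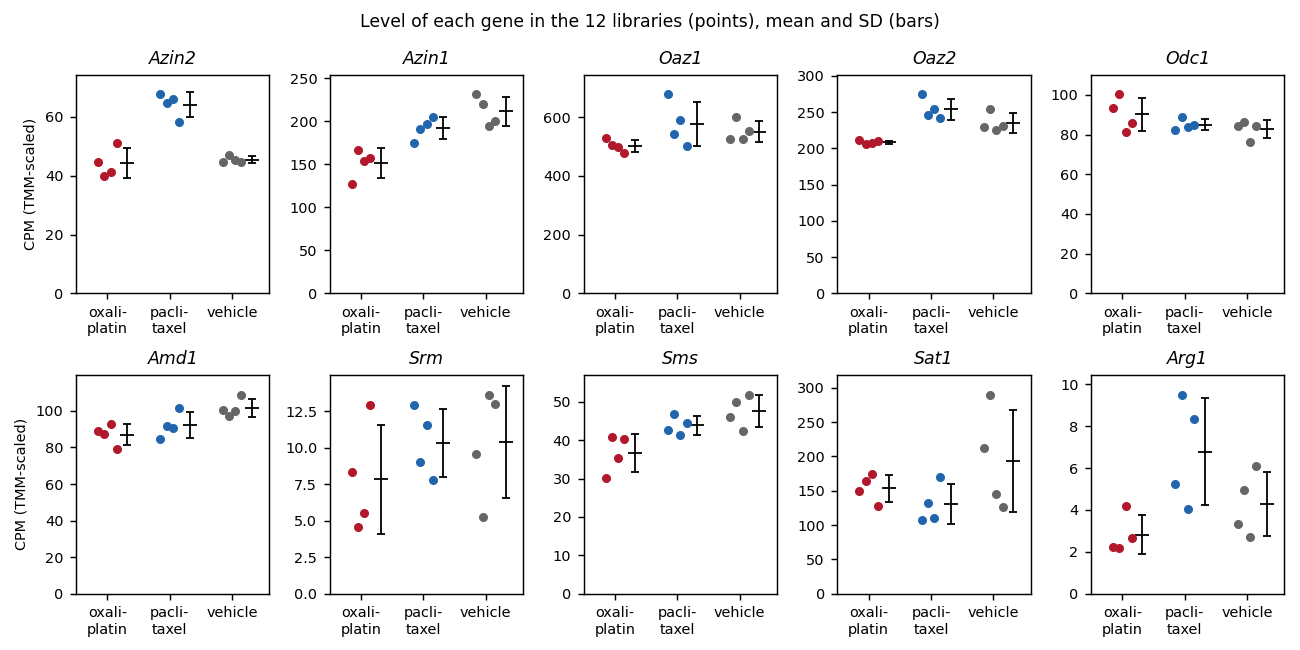
Level in CPM of each of the 10 genes in oxaliplatin, paclitaxel and vehicle libraries; points are libraries and the bar beside them is the mean with its SD (n = 4). Azin2 lies between 58.1 and 67.7 CPM in the paclitaxel libraries, above all oxaliplatin and vehicle libraries, and Azin1 lies between 127 and 167 CPM in the oxaliplatin libraries, below all others.

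On the CPM scale, each antizyme inhibitor differed from vehicle after another drug: Azin2 was higher after paclitaxel and Azin1 lower after oxaliplatin. That split did not hold when both genes were set against neuronal markers, as given below. Azin2 (gene ID 366473), known in mammals as an inhibitor found mainly in brain and testis, had 67.7, 64.9, 66.0 and 58.1 CPM in paclitaxel libraries, against 44.6, 47.1, 45.3 and 44.8 CPM in vehicle libraries. All 4 paclitaxel libraries lay above all vehicle libraries, as in 3.88% of all genes tested, and paclitaxel 4 was nearest to them. Azin2 was chosen with this difference known, so that share does not measure how rare it is. The fitted difference was 1.41-fold (log2 fold change 0.50), and 0.54 on the log2 scale without paclitaxel 4.
In oxaliplatin libraries Azin2 had 44.5, 40.0, 41.3 and 51.2 CPM, a range that contains all vehicle libraries. Oxaliplatin against vehicle gave a log2 fold change of -0.04 (95% interval -0.22 to 0.14, adjusted p = 0.862, edgeR). Against paclitaxel, oxaliplatin libraries were lower without overlap (-0.54, 95% interval -0.72 to -0.35, adjusted p = 0.00424, edgeR), with an adjusted p between 2.69e-07 and 0.0182 over the 18 alternatives run. Since the paclitaxel libraries that led to the choice of Azin2 are on one side of it, that p is not independent of the choice.

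Azin1 (58961), the widely expressed antizyme inhibitor, had 127, 167, 154 and 158 CPM in oxaliplatin libraries, against 231, 220, 195 and 200 CPM in vehicle libraries. Every oxaliplatin library lay below every vehicle library, oxaliplatin 1 the lowest. Azin1 fell to 0.716 of the vehicle level (log2 fold change -0.48 ± 0.09, SE, adjusted p = 0.0239, edgeR). It was the only one of the 10 genes called in that comparison, where 0.708% of all genes tested were called lower and 1.76% in either direction. The call was lost without vehicle 1, 2 or 4 or oxaliplatin 1 or 3 (adjusted p = 0.0518 to 0.0701), and also with the replicate number as a block. Of all 18 alternatives 12 called it and 6 did not, with an adjusted p between 5.73e-05 and 0.0701.
In paclitaxel libraries Azin1 had 175, 191, 197 and 205 CPM, which overlapped the vehicle libraries, and the log2 fold change was -0.14 (95% interval -0.34 to 0.06, adjusted p = 0.421, edgeR). Between the drugs Azin1 was lower after oxaliplatin (-0.34 ± 0.09, adjusted p = 0.0322). That call was lost without paclitaxel 2 or 3 or oxaliplatin 1 or 3 (adjusted p = 0.0654 to 0.0881), and also under other tools or settings. Of all 18 alternatives 9 called it and 9 did not, with an adjusted p between 0.00288 and 0.0995.

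The balance of the inhibitors, taken as the ratio of Azin2 to Azin1 in FPKM, was 0.734, 0.515, 0.579 and 0.700 in oxaliplatin libraries and 0.830, 0.729, 0.718 and 0.610 in paclitaxel libraries, against 0.414, 0.462, 0.500 and 0.480 in vehicle libraries. No library of either drug had a ratio within the vehicle range, while the ranges of the drugs overlapped. Both drugs are set against the same vehicle libraries. The paclitaxel part of this separation uses the Azin2 values that the list was selected on, so nothing is read from it. After paclitaxel the fitted difference was in Azin2 and after oxaliplatin in Azin1. Their summed level was 54.1 to 65.9 FPKM after oxaliplatin, 71.7 to 78.6 FPKM after paclitaxel and 70.0 to 78.9 FPKM with vehicle. All oxaliplatin libraries thus lay below the others, and the paclitaxel libraries lay within the vehicle range. Ratios were not tested.

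**Figure D2:**
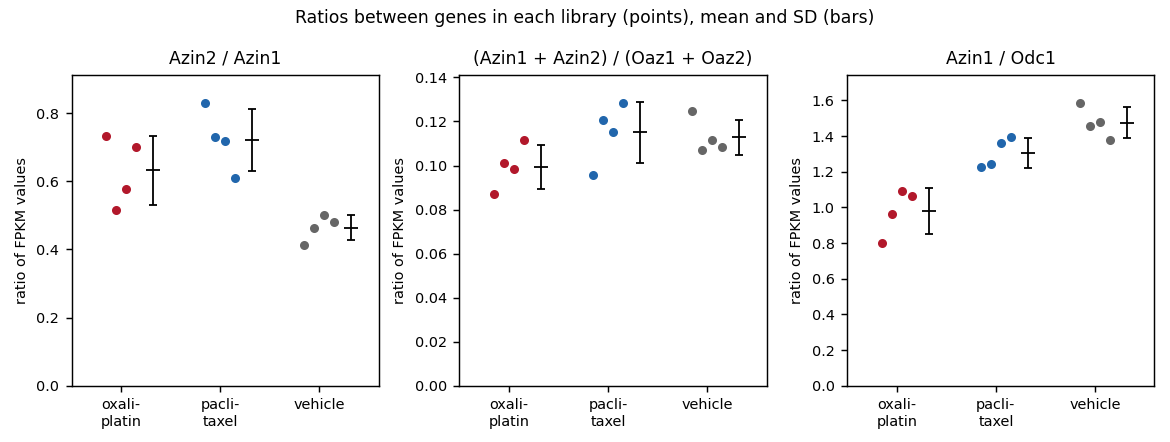
Ratios of FPKM values in each library for Azin2 to Azin1, for the antizyme inhibitors to the antizymes and for Azin1 to Odc1; points are libraries and bars the mean with its SD (n = 4 per group). The ratio of Azin2 to Azin1 is 0.515 to 0.734 after oxaliplatin and 0.610 to 0.830 after paclitaxel, above the 0.414 to 0.500 of vehicle. The list was selected on the Azin2 difference between paclitaxel and vehicle, which enters this ratio.

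Neuronal markers also differed between the groups. All 12 were higher after paclitaxel than with vehicle (median log2 fold change 0.25, 0 called by edgeR, 7 at an unadjusted p under 0.05, 1 by DESeq2 and 6 by limma voom), 11 of 12 were lower after oxaliplatin than with vehicle (median -0.21, 2 called), and all 12 were lower after oxaliplatin than after paclitaxel (median -0.42, 7 called). Set against their summed level, Azin2 was 2.34 to 2.70 CPM per 1000 CPM of markers after oxaliplatin, 2.26 to 2.72 after paclitaxel and 1.92 to 2.26 with vehicle. On that scale all oxaliplatin libraries lay above all vehicle libraries and within the paclitaxel range. The lowest paclitaxel and the highest vehicle library were both at 2.26. The neurofilament genes Nefl and Nefm made up 20.3% and 19.5% of the sum with vehicle. Without them, a choice made after seeing the data, Azin2 was 3.34 to 3.95 per 1000 CPM after oxaliplatin, 3.62 to 4.12 after paclitaxel and 3.23 to 3.66 with vehicle, and all 3 groups overlapped. Azin1 per 1000 CPM of all 12 markers was 6.82 to 10.1 after oxaliplatin, 5.85 to 9.61 after paclitaxel and 8.24 to 11.1 with vehicle, also overlapping. Its mean on that scale was lowest after paclitaxel, at 7.55, against 8.70 after oxaliplatin and 9.67 with vehicle. Without Nefl and Nefm, Azin1 was 9.56 to 14.8 per 1000 CPM after oxaliplatin, 9.38 to 14.5 after paclitaxel and 14.0 to 18.6 with vehicle. The range of each drug there reached into the low end of the vehicle range. The part of neuronal markers in these differences was not tested further.

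**Figure D3:**
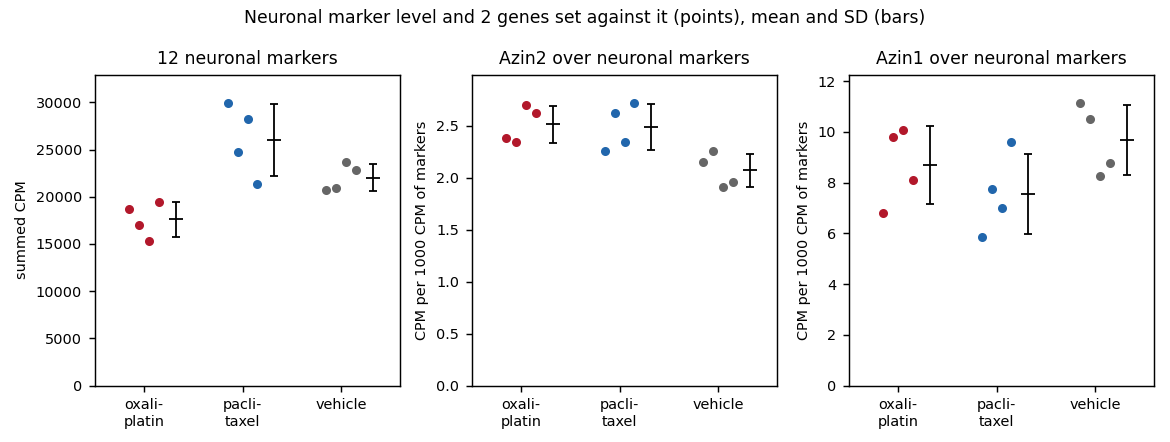
Summed CPM of 12 neuronal markers, and Azin2 and Azin1 per 1000 CPM of those markers, in oxaliplatin, paclitaxel and vehicle libraries; points are libraries and bars the mean with its SD (n = 4). The summed level runs from 15286 CPM in an oxaliplatin library to 29945 CPM in a paclitaxel library, and Azin2 per 1000 CPM lies within 2.26 to 2.72 in all libraries of both drugs.

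Of the antizymes, Oaz2 was lower after oxaliplatin than after paclitaxel, while Oaz1 did not pass the test in any comparison. Oaz2 (501454) had 211, 207, 207 and 210 CPM in oxaliplatin libraries, against 274, 245, 254 and 242 CPM in paclitaxel libraries. The vehicle libraries, at 229, 255, 225 and 231 CPM, lay above all oxaliplatin libraries and overlapped the paclitaxel libraries. Oaz2 was lower after oxaliplatin than after paclitaxel by -0.28 ± 0.07 on the log2 scale (adjusted p = 0.0221, edgeR). The call was lost without paclitaxel 1 or 3 or oxaliplatin 2 or 3 (adjusted p = 0.0542 to 0.0623), and also under other tools or settings. Of all 18 alternatives 11 called it and 7 did not, with an adjusted p between 7.58e-05 and 0.0623.
Against vehicle neither drug passed for Oaz2: the log2 fold change was -0.17 after oxaliplatin (95% interval -0.32 to -0.02, adjusted p = 0.224) and 0.11 after paclitaxel (-0.03 to 0.26, adjusted p = 0.38, edgeR).

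Oaz1 (25502), the most abundant antizyme, had 529, 505, 497 and 480 CPM in oxaliplatin libraries, 678, 544, 589 and 502 CPM in paclitaxel libraries and 525, 600, 526 and 552 CPM in vehicle libraries. The groups overlapped, and paclitaxel 1 was the highest library. No comparison passed: oxaliplatin against vehicle gave -0.13 (95% interval -0.33 to 0.07), paclitaxel against vehicle 0.07 (-0.13 to 0.27) and oxaliplatin against paclitaxel -0.20 (-0.40 to -0.004, adjusted p = 0.162, edgeR). Without paclitaxel 4 the last of these was -0.26 with an adjusted p of 0.0453 (range over 18 alternatives 0.0453 to 0.417). The sum of the antizymes was 591 to 623 FPKM after oxaliplatin, 612 to 747 FPKM after paclitaxel and 628 to 704 FPKM with vehicle, so all oxaliplatin libraries lay below all vehicle libraries. The antizyme inhibitors together stood at 0.0869 to 0.111 of the antizymes after oxaliplatin, 0.0959 to 0.128 after paclitaxel and 0.107 to 0.125 with vehicle, ranges that overlap. Among pairs of the 10 genes, only Azin1 and Sms had a higher Pearson r of log2 levels over the 12 libraries (0.88) than Oaz1 and Oaz2, whose start regions are printed above (0.85). These libraries fall into 3 groups and differ in cell type markers, as given above, so the r is a description.

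Odc1 (24609), the enzyme under antizyme control, did not pass in any comparison. It had 93.5, 100.2, 81.3 and 85.8 CPM in oxaliplatin libraries, 82.1, 89.1, 83.9 and 84.9 CPM in paclitaxel libraries and 84.2, 86.4, 76.3 and 84.1 CPM in vehicle libraries. The highest 2 values were oxaliplatin 2 and oxaliplatin 1, and the groups overlapped. The log2 fold change was 0.12 for oxaliplatin against vehicle (95% interval -0.04 to 0.29, adjusted p = 0.438) and 0.04 for paclitaxel against vehicle (-0.13 to 0.20, adjusted p = 0.796, edgeR), a direction that turned in library totals and FPKM scaling. The ratio of Azin1 to Odc1 was 0.803 to 1.09 after oxaliplatin, 1.23 to 1.39 after paclitaxel and 1.38 to 1.59 with vehicle, without overlap between oxaliplatin and either of the others. The ratio of Odc1 to the summed antizymes was 0.0570 to 0.0694 after oxaliplatin, 0.0426 to 0.0573 after paclitaxel and 0.0502 to 0.0555 with vehicle, so that the oxaliplatin libraries lay above the vehicle libraries. Summed over 10 markers of dividing cells the level was 78.2 to 97.3 CPM after oxaliplatin, 37.1 to 41.7 CPM after paclitaxel and 40.3 to 42.1 CPM with vehicle, and all 10 were higher after oxaliplatin than with vehicle (7 called). Their part in the Odc1 values was not tested.

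**Figure D4:**
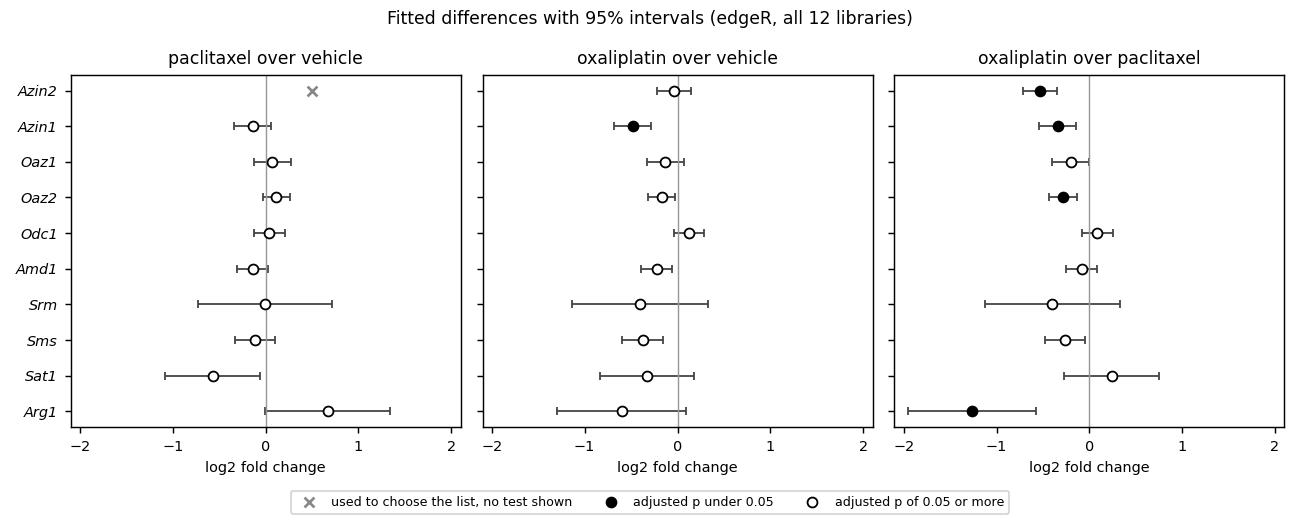
Log2 fold change of each gene with its 95% interval in the 3 comparisons, from the fit of all 12 libraries; filled points had an adjusted p under 0.05 and the grey cross, Azin2 in paclitaxel over vehicle, is the difference the list was selected on, drawn with no test. Between oxaliplatin and paclitaxel Azin2, Azin1, Oaz2 and Arg1 are filled, at -0.54, -0.34, -0.28 and -1.27. The filled point of Azin2 uses the paclitaxel libraries that led to its choice, so it is not independent of that choice.

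Of the enzymes that follow ornithine decarboxylase, none passed the test, and Amd1 and Sms were lower in all oxaliplatin libraries than in all vehicle libraries. Amd1 (81640), which makes the aminopropyl donor, had 88.8, 87.3, 92.9 and 78.9 CPM in oxaliplatin libraries, 84.6, 91.9, 90.7 and 102 CPM in paclitaxel libraries and 101, 97.4, 99.96 and 109 CPM in vehicle libraries. Paclitaxel 4 was the only paclitaxel library inside the vehicle range. In the fit, the log2 fold change was -0.23 for oxaliplatin against vehicle (95% interval -0.39 to -0.06, adjusted p = 0.153) and -0.14 for paclitaxel against vehicle (-0.31 to 0.02, adjusted p = 0.344, edgeR).
Sms (363469), which makes spermine from spermidine, had 30.2, 40.7, 35.4 and 40.2 CPM in oxaliplatin libraries, 42.8, 46.8, 41.3 and 44.4 CPM in paclitaxel libraries and 46.1, 49.9, 42.5 and 51.8 CPM in vehicle libraries. The oxaliplatin libraries lay below all others. The log2 fold change against vehicle was -0.38 after oxaliplatin (95% interval -0.59 to -0.16, adjusted p = 0.077, edgeR), which DESeq2 called (adjusted p = 0.0141, range over 18 alternatives 0.0141 to 0.229), and -0.12 after paclitaxel (-0.33 to 0.10, adjusted p = 0.518).
Srm (84596), which makes spermidine, had 4.54 to 12.9 CPM after oxaliplatin, 7.78 to 12.9 CPM after paclitaxel and 5.26 to 13.6 CPM with vehicle. These ranges overlapped nearly throughout, and the interval of oxaliplatin against vehicle (-1.13 to 0.32) is wide. The estimated counts of Srm and Sms were not whole in any of the 12 libraries, which marks reads divided between genes or pseudogenes of like sequence, so both are uncertain. The other 8 genes had whole counts throughout.

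Sat1 (302642), the acetyltransferase that starts polyamine breakdown and export, varied most among the abundant genes within vehicle. It had 149, 164, 174 and 128 CPM in oxaliplatin libraries, 108, 132, 111 and 170 CPM in paclitaxel libraries and 213, 290.0, 145 and 126 CPM in vehicle libraries. Vehicle 1 and 2 lay above all other libraries and vehicle 3 and 4 among them. The log2 fold change was -0.33 for oxaliplatin against vehicle (95% interval -0.84 to 0.18, adjusted p = 0.507) and -0.57 for paclitaxel against vehicle (-1.08 to -0.06, adjusted p = 0.261, edgeR). Without vehicle 2, the highest library, these were -0.07 and -0.31.
The deposited tables also give each gene's transcript length in each library, which for a gene with several transcripts follows which of them were assigned reads. Sat1 has 3 listed transcripts, and its length was 1647, 1609, 1640 and 1620 bases in oxaliplatin libraries, 1524, 1525, 1579 and 1625 bases in paclitaxel libraries and 1710, 1614, 1672 and 1610 bases in vehicle libraries. Paclitaxel 1, 2 and 3 had the shortest lengths of the 12 libraries, and paclitaxel 4 lay among the others. Of the other genes with several transcripts, Azin1 ran from 4067 to 4171 bases after oxaliplatin, 4157 to 4166 after paclitaxel and 4150 to 4171 with vehicle, and Odc1 from 2412 to 2430, 2413 to 2422 and 2404 to 2426 bases in the same order. In human and mouse, Sat1 is known to be controlled in part by inclusion of an exon that exposes the transcript to decay. Which transcript the reads came from was not tested.

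**Figure D5:**
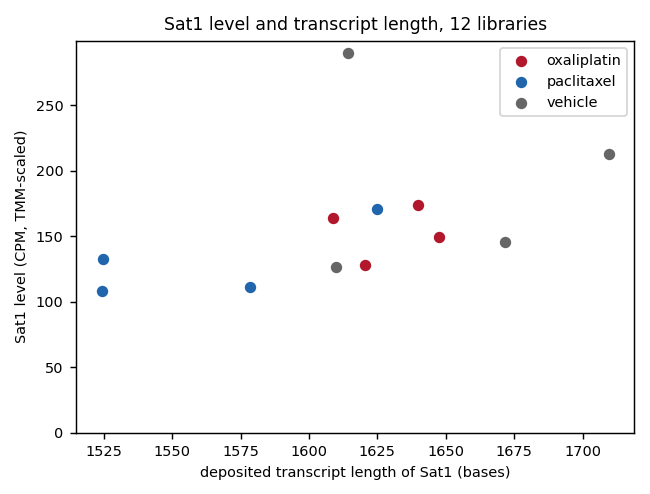
Level of Sat1 in CPM against its deposited transcript length in bases, for the 12 libraries coloured by group. Paclitaxel 1, 2 and 3 sit at 1524, 1525 and 1579 bases, shorter than every other library, and vehicle 1 and 2 have the highest levels, 213 and 290.0 CPM.

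Arg1 (29221), the arginase that releases ornithine from arginine, was expressed at a low level and differed between the drugs. It had 2.25, 2.18, 4.18 and 2.64 CPM in oxaliplatin libraries, against 5.26, 9.50, 4.03 and 8.36 CPM in paclitaxel libraries. Oxaliplatin 3 overlapped with paclitaxel 3. The log2 fold change was -1.27 ± 0.32 (adjusted p = 0.0259, edgeR), and the call was lost without paclitaxel 2 or oxaliplatin 1 or 2 (adjusted p = 0.0601 to 0.0808). Of all 18 alternatives 14 called it and 4 did not, with an adjusted p between 0.00216 and 0.0808.
In vehicle libraries Arg1 had 3.35, 4.97, 2.69 and 6.08 CPM, which overlapped both drugs. The log2 fold change was -0.60 for oxaliplatin against vehicle (95% interval -1.30 to 0.09, adjusted p = 0.365) and 0.67 for paclitaxel against vehicle (-0.004 to 1.34, adjusted p = 0.295, edgeR). Arginase is in mouse also a product of some macrophages. All 12 macrophage markers and all 9 neutrophil markers tested went the other way between the drugs, higher after oxaliplatin than after paclitaxel (medians 0.69 and 1.00, 6 and 0 called by edgeR). Of the neutrophil markers 3 had an unadjusted p under 0.05, and DESeq2 called 2 and limma voom 0. Their part in the Arg1 values was not tested.

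Counted over the 10 genes, 1 was called after paclitaxel against vehicle, where 0.12% of the genes tested were called. That gene was Azin2, which the list was built around, so nothing is read from the count. After oxaliplatin against vehicle 9 of 10 were lower (median -0.28, against 0.01 over all genes tested) and 1 was called. In 4 of them, Azin1, Oaz2, Amd1 and Sms, oxaliplatin libraries lay below vehicle libraries without overlap, against 5.76% of all genes tested. Between oxaliplatin and paclitaxel 8 of 10 were lower (median -0.27, against 0.004 over all genes tested) and 4 were called lower, against 4.71% of all genes tested. In 4, Azin2, Azin1, Oaz2 and Sms, oxaliplatin libraries lay below paclitaxel libraries without overlap, against 6.1% of all genes tested. Azin2 is in both counts and the list was selected on its paclitaxel values, so nothing is read from it there. Of the other 9 genes 3 were called (Azin1, Oaz2 and Arg1) and 3 did not overlap (Azin1, Oaz2 and Sms). With library totals only, which called 293 genes lower and 1499 higher in that comparison in place of 744 and 1044, 2 of the 10 were called. Neuronal markers were lower too, 11 of 12 for oxaliplatin against vehicle (median -0.21) and all 12 for oxaliplatin against paclitaxel (median -0.42). Their part in the shift of the 10 genes was not tested.

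The wider pathway is given by 7 lists of related genes. Of their 81 tested members edgeR called 0 against vehicle for either drug. For oxaliplatin against vehicle 16 had an unadjusted p under 0.05, and DESeq2 called 6 and limma voom 6, against 881 and 631 of all 15809 genes tested. For paclitaxel against vehicle 15 did, and DESeq2 called 1 and limma voom 14, against 247 and 2271 of all genes tested. Among all 15809 genes tested for oxaliplatin against vehicle, an unadjusted p of 0.04715 (edgeR) stood at rank 2641. For paclitaxel against vehicle a p of 0.04424 stood at rank 2482. Many genes outside the lists thus passed as well, and nothing is read from the counts of 16 and 15. Between oxaliplatin and paclitaxel 10 were called, against 11.3% of all genes tested. Of 8 tested genes listed under polyamine interconversion and breakdown, 2 were called between oxaliplatin and paclitaxel, both higher after oxaliplatin. Of all 15809 genes tested, 1044 were called higher there. By direction alone 4 were higher and 4 lower. Smox, which oxidises spermine back to spermidine, had 59.1 ± 7.43 CPM after oxaliplatin and 44.9 ± 2.38 CPM after paclitaxel (log2 fold change 0.40 ± 0.10, adjusted p = 0.0245, edgeR). Against vehicle (50.2 ± 4.67 CPM) its log2 fold change was 0.24 after oxaliplatin and -0.16 after paclitaxel, adjusted p = 0.236 and 0.391. Aoc3, a vascular and adipocyte amine oxidase, had 55.3 ± 8.97 CPM after oxaliplatin and 25.99 ± 1.45 CPM after paclitaxel (1.09 ± 0.22, adjusted p = 0.0108, edgeR). These data do not show whether Aoc3 acts on polyamines. Adipocyte and endothelial markers were higher in the same comparison, all 7 and all 9 tested (medians 2.08 and 0.48, 6 and 4 called). The counts of Aoc3 were not whole in 7 libraries.

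Of 17 subunits of the proteasome cap, the particle that receives ornithine decarboxylase bound to antizyme, all 17 were lower after oxaliplatin than after paclitaxel (median -0.18) and 3 were called, against 4.71% of all genes tested called lower. DESeq2 called 7 of the 17 and limma voom 10, where they called 2795 and 4796 of all 15809 genes tested in either direction. Psmd8 had 161 ± 14.4 and 205 ± 17.1 CPM in oxaliplatin and paclitaxel libraries (-0.35 ± 0.08, adjusted p = 0.0192, edgeR). Psmd11 had -0.27 ± 0.06 and Psmd1 -0.26 ± 0.07 (adjusted p = 0.0184 and 0.0267). The counts of Psmd8 were not whole in 10 libraries. Neuronal markers were lower in the same comparison, as given above.
Of 4 genes of hypusine synthesis, which turns spermidine into a modified residue of the translation factor Eif5a, Dhps, the enzyme of the initial step, was called lower after oxaliplatin than after paclitaxel (-0.24 ± 0.07, adjusted p = 0.0491, edgeR). Its counts were not whole in any of the 12 libraries. Eif5a itself had -0.13 ± 0.08 (adjusted p = 0.303).
Of 12 genes of polyamine transport Cav1, caveolin, was called higher after oxaliplatin than after paclitaxel (0.53 ± 0.13, adjusted p = 0.0233, edgeR). In that comparison 1044 of all 15809 genes tested were called higher and 744 lower. Nothing is therefore read from the counts called in the hypusine, transport, methionine and Myc lists. Endothelial and adipocyte markers were higher in the same comparison, as given for Aoc3, and their part in either gene was not tested. Of 13 genes of the methionine cycle and salvage Got1, a transaminase, was called lower in that comparison (-0.37 ± 0.11, adjusted p = 0.0423). Of 10 Myc family regulators Mxd1 (0.38 ± 0.11) and Mxd3 (1.39 ± 0.42), which compete with Myc for Max, were called higher (adjusted p = 0.0399 and 0.0487), while Myc itself had -0.02 ± 0.11 (adjusted p = 0.923, edgeR). Mxd3 was at a very low level, 1.25 ± 0.605 CPM after oxaliplatin and 0.475 ± 0.215 CPM after paclitaxel. All 10 markers of dividing cells were higher in the same comparison (median 1.11, 8 called), and their part in Mxd1 and Mxd3 was not tested. Of 17 genes of arginine and ornithine supply edgeR called 0 in any comparison. At an unadjusted p under 0.05 there were 3 for oxaliplatin against paclitaxel, 3 for oxaliplatin against vehicle and 1 for paclitaxel against vehicle, and DESeq2 called 1, 1 and 0 and limma voom 2, 1 and 1. Over all 15809 genes tested, an unadjusted p of 0.04857 (edgeR) stood at rank 4613 for oxaliplatin against paclitaxel. The ranks against vehicle are given above, and nothing is read from these counts. The smallest p-values in this list belonged to Nos3, the endothelial nitric oxide synthase, at 0.70 ± 0.17 for oxaliplatin against vehicle (adjusted p = 0.0603), and to Ddah1, at 0.30 ± 0.11 for paclitaxel against vehicle (adjusted p = 0.236, edgeR). Nos3 counts were not whole in 12 libraries. Endothelial markers were higher in 8 of 9 for oxaliplatin against vehicle (median 0.36, 0 called by edgeR, 5 at an unadjusted p under 0.05, 1 by DESeq2 and 0 by limma voom), and their part in Nos3 was not tested.

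By Pearson correlation of log2 CPM over the 12 libraries, among 13898 genes whose log2 CPM averaged 1 or more, the genes most like Azin2 were Zfyve27 (0.97), Vamp2 (0.96), Txnrd1 (0.96), Arf3 (0.94) and Rab15 (0.94). Those most like Azin1 were Amot (0.95), RGD1561327 (0.94), Ccdc126 (0.94), Tspan12 (0.93) and Ermp1 (0.93). For Oaz2 they were Cmas (0.94), Qdpr (0.94), Dynll2 (0.94), Mid1ip1 (0.94) and Arf1 (0.93). For Arg1 they were Gcnt2 (0.93), Sco1 (0.91), Tmem200a (0.91), Tmem65 (0.90) and Nxnl2 (0.89). The closest to Odc1 were Dut (0.90), Cyp2j10 (0.89), Alyref (0.88), Fanci (0.87) and Gins1 (0.87). The libraries fall into 3 groups and differ in cell type markers, as given above, and these values are descriptions over 12 points.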

How the data were processed

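Per the labels' protocols, Trizol was used on frozen rat dorsal root ganglia and a BGIseq500 kit for the 12 libraries; standard Illumina preparation is also named. Each library had a deposited table of expected counts (estimated counts that divide shared reads), FPKM values and transcript lengths per gene, per the file headers. The authors' tables list genes from an FPKM of 0.01, and an unlisted gene was taken as 0. CASAVA 1.4 and Bowtie2 stand in the submitters' processing notes; the counting tool, strand setting and genome build are not given in the sources used here. RefSeq (GRCr8) supplied names and promoter sequences only.

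The deposited expected counts were rounded and fitted with edgeR 4.0.16 (R 4.3.3): default filter, TMM scaling, robust quasi-likelihood fit of 3 group means over 12 libraries, two-sided, Benjamini-Hochberg adjustment over 15809 genes, threshold 0.05. CPM is TMM-scaled, and 95% intervals use the moderated degrees of freedom. Alternatives were DESeq2 1.42.0, limma 3.58.1 (voom with quality weights, log2(FPKM + 1), log2(FPKM + 0.1)), other scalings, no filter, 8 libraries only, a replicate block and leaving out each library. The scripts were tested on simulated counts. The precision is that of 4 libraries per group.

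The genes and lists were chosen with earlier results of these data known. All 10 genes are described. Named related genes are those called in any comparison, or the up to 2 with the smallest p of their list, and Eif5a and Myc were added after their values were seen. Genes of like pattern are the 5 with the highest Pearson r of log2 CPM (prior count 2).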

Additional observations from a re-analysis of the deposited data

Results flagged for a closer look

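In a group of 4 libraries, 2 values stood far from the other 3 by the gap to the nearest of them over the whole range, among 66 groups of levels, transcript lengths and ratios looked at; chance flags about 1 in 20. The deposited transcript length of Azin1 was 4067 bases in oxaliplatin 1, against 4166 to 4171 bases in the other oxaliplatin libraries, and that library also had the lowest Azin1 level of the 12 (127 CPM). The length of Oaz2 was 1827.75 bases in paclitaxel 3, against 1827.89 bases in each of the other paclitaxel libraries, a difference of less than 1 base.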

How the results depend on the processing

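Of 540 recomputed log2 fold changes (10 genes, 3 comparisons, 18 alternatives), 486 kept their direction and side of the threshold, 37 lost a call, 2 gained one and 15 turned direction, all 15 in values that were not called. Of the 10 genes, for oxaliplatin against paclitaxel 4 were called, but 2 with library totals only, 2 with 8 libraries only and 2 to 5 when leaving out each library. For oxaliplatin against vehicle 1 was called, but 2 with DESeq2 and 0 to 1 when leaving out each library. For paclitaxel against vehicle 1 was called, but 0 with log2(FPKM + 1), log2(FPKM + 0.1) and library totals only, and 0 to 1 when leaving out each library. The cause was not tested.

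With the replicate number as a block, the replicate block, 1, 0 and 0 of the 10 genes were called in those comparisons, and 986 and 72 of all genes for oxaliplatin against paclitaxel and against vehicle. Deviations of same-numbered libraries correlated at -0.23 to 0.16, not every library correlated best with its own number, and the numbers are not known to pair animals.

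Over all genes, oxaliplatin against paclitaxel gave 1788 calls, but 2795 with DESeq2, 4796 with limma voom, 1016 with 8 libraries only and 571 to 3463 when leaving out each library. Oxaliplatin against vehicle gave 278 calls, but 881, 631, 161 and 49 to 242 in the same order. Paclitaxel against vehicle gave 19 calls, but 247 with DESeq2, 2271 with limma voom and 10 to 1631 when leaving out each library. Higher and lower calls split 1044 to 744 for oxaliplatin against paclitaxel, but 1499 to 293 with library totals only, 1507 to 277 with log2(FPKM + 1) and 1456 to 263 with log2(FPKM + 0.1). For oxaliplatin against vehicle they split 166 to 112, but 189 to 63, 256 to 74 and 194 to 61 under those settings.

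Turned log2 fold changes for paclitaxel against vehicle were those of Odc1 (-0.0085 with log2(FPKM + 1), -0.0088 with log2(FPKM + 0.1), -0.0082 with library totals only), Oaz1 (-0.0145 to 0.1327 when leaving out each library) and Srm (0.0027 with DESeq2, 0.018 with limma voom, 0.0004 with log2(FPKM + 1), 0.0098 with log2(FPKM + 0.1), 0.0021 with RLE size factors, 0.0765 with the replicate block, and -0.2247 to 0.1533 when leaving out each library). For oxaliplatin against vehicle Azin2 ran from -0.1257 to 0.0075 when leaving out each library.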
